A study of Mus musculus with 2 samples.

Results

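The Notch genes followed here were 10 in number and were read by cell type and library: the receptors Notch1, Notch2 and Notch3, the ligands Jag1, Dll1 and Dll4, and the response genes Hes1, Hey1, Heyl and Nrarp. They were taken by symbol from a list, not by their values, and all 10 were present among the 32286 features of both matrices. The study sorted cells of the knee joint cartilage that carried a tdTomato label switched on in Procr-expressing cells, and sequenced their RNA cell by cell with 3′ tags. Both groups were Procr-CreER;tdTomato mice given tamoxifen at 4 weeks of age, and both were sorted as CD45-, Ter119-, CD31-, DAPI- and tdTomato+. The pulse library was taken 2 days after tamoxifen and the trace library 4 weeks after it. Each group was 1 library made from 3 pooled mice, with no map from cells to mice, so no test across animals could be made. The CreER recombines the reporter wherever Procr is active at the time of tamoxifen, which includes cells outside cartilage, and the protocol's digest held periosteum cells as well as articular cartilage cells.

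Notch receptors sit at the cell surface and are switched on by ligands of the Jagged and Delta-like families on a neighbouring cell. Ligand binding lets proteases, the last of them gamma-secretase, cut the receptor, and its freed intracellular part joins the DNA-binding protein RBPJ and a Mastermind co-activator to turn on genes such as the Hes and Hey repressors and Nrarp, a feedback inhibitor. In vessels, Dll4 and Notch1 act between endothelial cells and mark arterial fate, and Jag1 on endothelium signals to Notch3 on the smooth muscle cells and pericytes that wrap them. In cartilage, Notch signalling is known to restrain chondrocyte differentiation through RBPJ and Hes1.

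Cells with 500 or more genes and at most 10% mitochondrial UMIs were kept: 6533 of 6863 barcodes in pulse and 9247 of 10423 in trace, with median depths of 2837 and 3645 UMIs, and 15 barcodes occurred in both libraries. The libraries differed in more than chase time. Xist had 3 UMIs in pulse and 14149 in trace, the Y-linked Ddx3y had 4246 and 13, and the rRNA-associated feature Gm42418 had a share of 0.653% in pulse against 6.73% in trace. Time after labelling, age, the sex-linked genes and library preparation therefore cannot be told apart in any pulse to trace difference below. Levels are UMIs summed over the cells of a class, per 1000000 UMIs of that class (CPM). Intervals are exact 95% Poisson intervals and ratios have exact conditional intervals. Both cover counting error only.

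Cell classes were gated on counts of distinct marker genes, none of them a Notch gene. The labelled cell type held for most gated cells: 4023 pulse and 4269 trace cells were superficial chondrocyte-like (markers such as Prg4, Creb5 and Erg beside Acan, Col2a1 and Sox9), and 657 and 197 were deeper-zone chondrocyte-like (Matn1, Matn3, Col9a1). Mural-like cells, with markers of smooth muscle cells and pericytes such as Myh11, Acta2 and Rgs5, numbered 20 in pulse and 266 in trace. Endothelial-like cells (Cdh5, Emcn, Kdr) numbered 56 and 323 although the sort excluded CD31, the product of Pecam1. The fibroblast-like classes were synovial lining (240 and 760 cells) and loose connective tissue (110 and 458 cells), and 31 and 144 cells were osteoblast-like. Trace also held 240 neutrophil-like and 146 B-lineage-like cells, against 2 and 0 in pulse. A gate is a cut on a range: 40 of the 266 mural-like and 34 of the 323 endothelial-like trace cells met it with no marker to spare, as did 1194 of the 4269 superficial cells. Cells of no gate (1361 in pulse, 2090 in trace) or of more than 1 (32 and 305) were left out of the classes.

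The promoters of 4 members that were high in a vessel class are shown here to set beside those levels. They are RefSeq windows on GRCm38.p6 of 300 bases each, from 250 bases before to 50 bases from the start of the gene, read on the gene's strand. Capitals mark CACGTG, the E-box, and CACGCG, 2 words that HES and HEY proteins are known to bind, the latter also as CGCGTG where it lies on the other strand. The words do not overlap each other in these windows. Notch3 and Nrarp were highest in mural-like cells, Dll4 in endothelial-like cells, and Jag1 in both.
Notch3, chr17:32166841-32167140, minus strand: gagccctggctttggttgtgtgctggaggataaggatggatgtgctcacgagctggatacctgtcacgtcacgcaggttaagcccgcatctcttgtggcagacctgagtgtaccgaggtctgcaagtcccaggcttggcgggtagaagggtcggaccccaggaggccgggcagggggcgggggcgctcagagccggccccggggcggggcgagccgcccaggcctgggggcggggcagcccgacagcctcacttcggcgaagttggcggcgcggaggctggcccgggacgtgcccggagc
Nrarp, chr2:25180508-25180807, plus strand: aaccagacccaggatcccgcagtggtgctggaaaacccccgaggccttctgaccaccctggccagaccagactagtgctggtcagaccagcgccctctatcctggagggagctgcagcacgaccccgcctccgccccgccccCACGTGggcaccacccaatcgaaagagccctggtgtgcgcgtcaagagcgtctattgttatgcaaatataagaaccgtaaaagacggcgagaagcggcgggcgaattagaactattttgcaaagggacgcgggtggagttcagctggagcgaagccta
Dll4, chr2:119325534-119325833, plus strand: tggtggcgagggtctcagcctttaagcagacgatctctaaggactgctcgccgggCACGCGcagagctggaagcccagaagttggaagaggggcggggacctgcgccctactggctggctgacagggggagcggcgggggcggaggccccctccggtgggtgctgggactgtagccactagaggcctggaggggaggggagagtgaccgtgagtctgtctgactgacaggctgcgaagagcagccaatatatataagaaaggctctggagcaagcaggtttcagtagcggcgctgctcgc
Jag1, chr2:137116471-137116770, minus strand: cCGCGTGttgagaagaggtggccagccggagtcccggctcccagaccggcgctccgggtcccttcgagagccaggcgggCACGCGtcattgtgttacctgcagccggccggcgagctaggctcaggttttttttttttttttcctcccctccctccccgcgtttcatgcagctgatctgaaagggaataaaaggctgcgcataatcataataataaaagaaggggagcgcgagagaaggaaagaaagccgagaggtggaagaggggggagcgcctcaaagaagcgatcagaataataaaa
These words and TGGGAA were searched on both strands in 32851 such windows of mouse genes, and 7 of the 10 members had a window. The response genes Hes1, Hey1 and Heyl had none, so their promoters were not searched. CACGTG was in 7.15% of all windows and, among the members, in that of Nrarp, with its first base at -108 from the start. CACGCG was in 9.27% of all windows and in those of 4 members: Jag1 at -249 and -171, Dll4 at -195, Notch2 at -42 and 1 of the 2 windows of Dll1 at -68. TGGGAA, in the core that RBPJ is known to read, was in 25.6% of all windows and in none of those of the 7 members searched. A match is a description of these letters, and no expression value below was tied to one.

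Among the gated classes, mural-like cells stood out for the receptor Notch3 and the response genes Nrarp and Heyl. Notch3 had 738 UMIs in the 266 mural-like trace cells, a level of 1165 CPM (1082 to 1252), and 33 UMIs in the 20 pulse cells, 999 CPM (688 to 1403). In trace the next class was osteoblast-like, at 8.97 CPM from 4 UMIs, so the mural level was 130-fold higher (50.5 to 478). No Notch3 UMI was found in neutrophil-like, B-lineage-like or deeper-zone trace cells, and the single one in 323 endothelial-like cells set the mural to endothelial ratio at 1030 with an interval from 184 up. Mural-like cells held 73.8% of all 1000 Notch3 UMIs in trace and 32.7% of the 101 in pulse. Of the rest in pulse, 19 lay in superficial cells, 20 in cells of more than 1 gate and 21 in cells of none. In trace 162 lay in cells of more than 1 gate, which the ratios above leave out. The 78 of those cells that met the endothelial gate held 61, or 135 CPM. Among the gated classes Notch3 was thus highest in mural-like cells in both libraries, though it was not used to gate that class. The gene (ENSMUSG00000038146) spans chr17:32120820-32166852 and overlaps Gm17276 on the other strand, with 171 UMIs in trace against 1000 of Notch3, and the strand setting of the counting is not given in the sources used here.

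Nrarp, the feedback inhibitor, had nearly the same distribution. It was at 208 CPM (174 to 247) in mural-like trace cells from 132 UMIs and at 60.6 CPM in pulse from 2 UMIs. The next class in trace, endothelial-like, had 14.7 CPM from 13 UMIs, a ratio of 14.2 (8.0 to 27.3). In superficial cells, by contrast, Nrarp had a single UMI in each library. Heyl, a Hey-family repressor, was at 37.9 CPM (24.3 to 56.4) in mural-like trace cells from 24 UMIs, and no UMI was found in endothelial-like cells, where 3 UMIs would give at least an 11.2-fold lower level than mural. Hey1, its relative, did not separate the vessel classes: 23.7 CPM in mural-like and 14.7 CPM in endothelial-like trace cells, a ratio of 1.61 (0.715 to 3.68).

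Jag1 was the ligand of the mural class. It was at 213 CPM (179 to 252) in mural-like and 102 CPM (81.9 to 125) in endothelial-like trace cells, a ratio of 2.09 (1.59 to 2.76). Osteoblast-like cells at 62.8 CPM and loose fibroblast-like cells at 50.3 CPM followed, with overlapping intervals. Superficial chondrocyte-like cells had 13.0 CPM and neutrophil-like and B-lineage-like cells 0 UMIs. In pulse the order of these vessel classes differed, with 314 CPM in 56 endothelial-like cells and 151 CPM (49.2 to 353) from 5 UMIs in 20 mural-like cells.

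**Figure D1:**
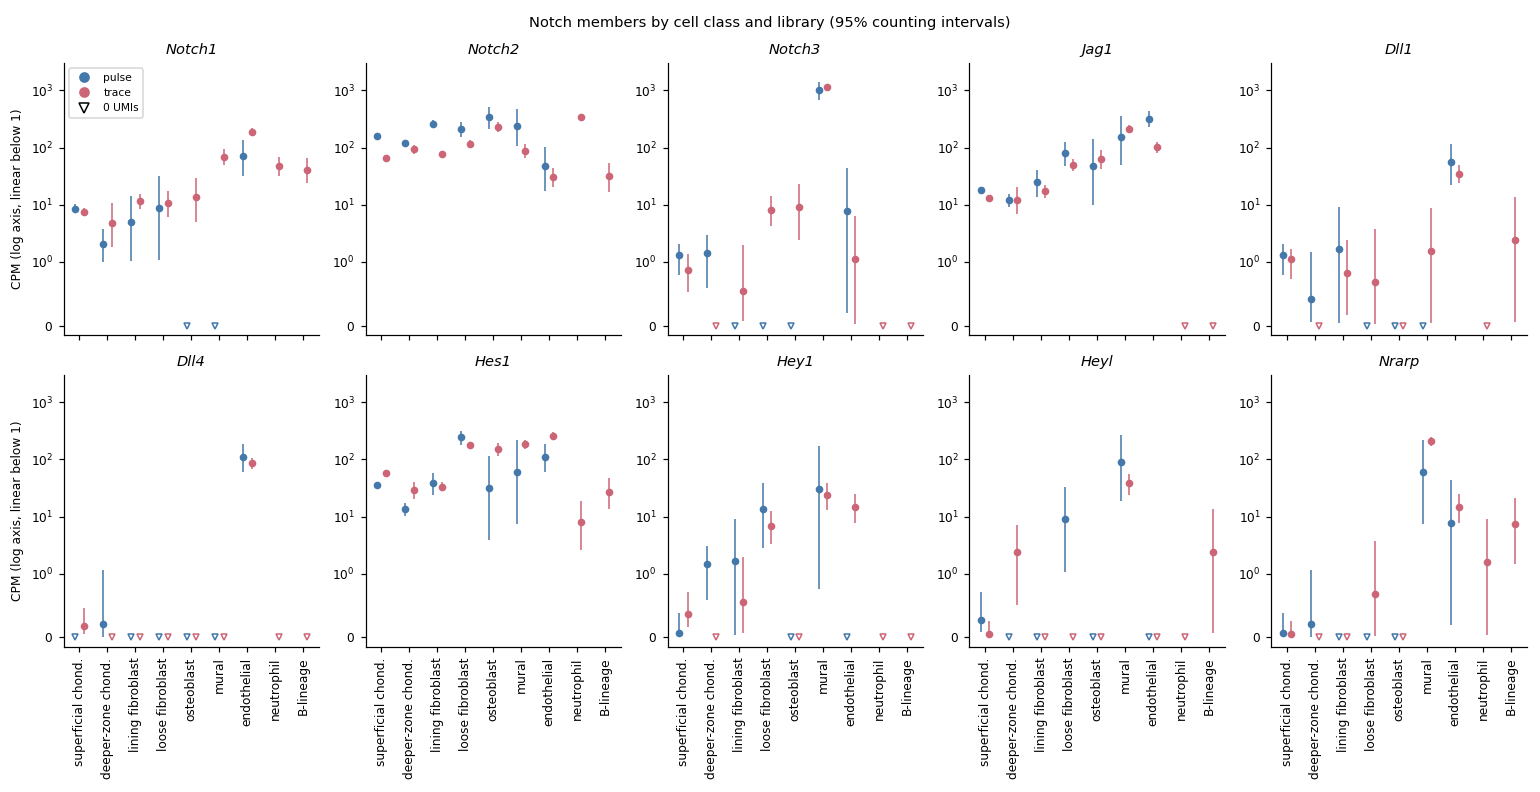
Level of each of the 10 members in CPM (vertical axis, logarithmic, linear below 1) by cell class (horizontal axis) and library (blue pulse, red trace), with 95% counting intervals. Classes of under 20 cells in a library are not drawn and open triangles mark 0 UMIs. Notch3, Nrarp and Heyl stand out in mural cells, Dll1 and Dll4 in endothelial cells, while Notch2 and Hes1 were found in every class.

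Endothelial-like cells carried Notch1 and the Delta-like ligands. Notch1 was at 189 CPM (161 to 220) in trace from 167 UMIs and 70.7 CPM (32.3 to 134) in pulse from 9. Its trace level was 2.72-fold (1.94 to 3.88) that of mural-like cells, at 69.4 CPM, and 25.6-fold (20.5 to 31.9) that of superficial cells, at 7.39 CPM. Neutrophil-like cells at 47.8 CPM and B-lineage-like cells at 41.2 CPM came next, with intervals that overlap each other. Notch1 (chr2:26457903-26516663) overlaps 0610009E02Rik on the other strand, a feature with 303 trace UMIs over all cells against 678 of Notch1, so reads of this pair may be mixed.

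Dll4, the arterial and tip-cell ligand, was nearly absent from the other gated classes. Its 76 UMIs in endothelial-like trace cells gave 86.0 CPM (67.7 to 108), and its 14 in pulse gave 110 CPM (60.1 to 184). In the other trace classes only superficial cells had any, 4 UMIs in 4269 cells or 0.183 CPM. A further 36 of the 119 trace UMIs of Dll4 (30.3%) and 8 of the 23 in pulse lay in cells left out for meeting more than 1 gate, all of them cells that met the endothelial gate among others. Dll1 was at 35.1 CPM (23.8 to 49.8) in endothelial-like trace cells and 55.0 CPM (22.1 to 113) in pulse. In trace its next class was B-lineage-like, with a single UMI. Superficial cells had 19 Dll1 UMIs in pulse and 25 in trace, 30.7-fold (17.6 to 54.3) below the endothelial trace level. Of the response genes, Hes1 was highest in endothelial-like trace cells, at 260 CPM (228 to 296), 1.41-fold (1.12 to 1.78) above mural-like cells at 185 CPM.

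Set against superficial chondrocyte-like cells of the trace library, 8 members reached 20 CPM in mural-like or superficial cells, of which 7 were at least 2-fold higher in mural-like cells and none lower. Over all 6893 genes measured that way, 24.2% were higher and 16.8% lower. The median log2 ratio was 5.02 over the 8 members and 0.20 over all genes. The exception was Notch2, at 88.4 CPM in mural-like and 66.4 CPM in superficial cells. For endothelial-like against superficial cells 6 members were measured, of which 5 were higher and 1, Notch2, was lower, with 25.1% and 17.8% of 6803 genes past those lines. Their median log2 ratio was 3.82 against 0.26. A member that reached 20 CPM only through its vessel class had to differ. The filter therefore also raises the medians of the members, and these counts and medians describe the members and no more.

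Notch2 (chr3:98013527-98150361) and Hes1 (chr16:30064384-30067796), which overlap no other feature, were the members that reached 20 CPM in trace in both a chondrocyte and a fibroblast class. Notch2 was found in all classes, and in trace it was highest in neutrophil-like cells at 344 CPM (300 to 393), 1.52-fold (1.19 to 1.94) above osteoblast-like cells at 227 CPM. Loose fibroblast-like (115 CPM), deeper-zone (93.6 CPM), mural-like (88.4 CPM) and lining (76.8 CPM) cells formed a run whose neighbours overlap in their intervals. Endothelial-like cells were lowest at 30.5 CPM (20.1 to 44.4), with B-lineage-like cells at 31.5 CPM beside them. Notch2 was therefore low in the class in which Notch1 was high.

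Hes1 in trace was at 177 CPM in loose fibroblast-like and 150 CPM in osteoblast-like cells, which overlap each other and mural-like cells. Superficial cells had 58.4 CPM (55.3 to 61.7), lining cells 33.2 CPM and deeper-zone cells 29.3 CPM (20.5 to 40.6). Hes1 was thus higher in surface than in deeper-zone chondrocyte-like cells. Neutrophil-like cells were lowest, at 7.97 CPM from 5 UMIs. The other 8 members were sparse in chondrocytes. In superficial trace cells Notch1 was at 7.39 CPM, Jag1 at 13.0 CPM, and Notch3, Dll1, Dll4, Hey1, Heyl and Nrarp each below 1.2 CPM, and in deeper-zone trace cells Notch3, Dll1, Dll4, Hey1 and Nrarp had no UMI among 1228826.

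Shares of cells were compared after thinning each cell to 2000 UMIs, with the unthinned share in brackets. A Notch3 UMI was found in 75.5% (67.8 to 82.1, exact Clopper-Pearson) of 151 mural-like trace cells (81.2%) against 0.55% of 181 endothelial-like cells (0.31%) and none of 121 neutrophil-like cells, which should lack it. Nrarp was found in 22.5% (16.1 to 30.0) of mural-like cells (24.8%), Jag1 in 27.8% (32.3%) and Hes1 in 25.8% (28.9%). In endothelial-like cells Notch1 was found in 27.1% (20.7 to 34.2) of cells (34.1%), Hes1 in 21.5% (30.3%) and Dll4 in 12.7% (18.0%). Median depths were 2146.5 UMIs in mural-like, 2172 in endothelial-like and 2014.5 in neutrophil-like trace cells. Most mural-like cells thus had the receptor, while each response gene was detected in a minority at this depth.

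Receptor and response genes were then read in the same thinned cells. Of 114 mural-like trace cells with a Notch3 UMI, 51.8% (42.2 to 61.2) had a UMI of any of the 4 response genes, against 45.9% (29.5 to 63.1) of 37 cells without one. Superficial cells with a Notch2 UMI had Hes1 in 6.64% of 813 pulse cells and 9.61% of 458 trace cells, and those without in 6.32% of 2515 and 9.58% of 3446. The intervals of each pair overlap and the differences were not tested, so no tie between receptor and response gene is claimed within these classes. For Notch1 in endothelial-like trace cells the shares with a response gene were 20.4% of 49 cells with a UMI and 24.2% of 132 without. For Dll4 they were 43.5% (23.2 to 65.5) of 23 cells and 20.3% (14.3 to 27.4) of 158, which overlap as well.

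The vessel classes were divided by marker lists that hold no member. Among endothelial-like trace cells, 112 had a UMI of an arterial gene (Gja4, Gja5, Efnb2, Sox17, Bmx or Sema3g) and 211 had none. Jag1 was at 167 CPM in the former and 59.7 CPM in the latter, a ratio of 2.79 (1.78 to 4.44). Dll4 was at 112 and 69.0 CPM, a ratio of 1.62 (1.01 to 2.62). The same direction held in pulse, with ratios of 2.58 (1.25 to 5.72) for Jag1 and 5.87 (1.31 to 54.0) for Dll4, the latter from 12 and 2 UMIs. Notch1 (1.29, 0.935 to 1.76), Hes1 (1.23, 0.936 to 1.60) and Dll1 (2.13, 0.987 to 4.73) had trace intervals that include 1. Cells with an arterial gene also had more UMIs, with a median of 2486 against 2049. Of the list, Gja4 was higher in mural-like trace cells, at 223 CPM. In the 112 cells it was at 31.6 CPM from 11 UMIs, beside 113 UMIs of Efnb2. The part of depth or of Gja4 in the split was not tested.

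Among mural-like trace cells, 143 had UMIs of more smooth muscle genes (Myh11, Acta2, Tagln, Cnn1, Myl9) than pericyte genes (Rgs5, Kcnj8, Abcc9, Higd1b, Cspg4), and 80 the reverse. Notch3 was at 1456 CPM in the smooth muscle-leaning and 524 CPM in the pericyte-leaning cells, a ratio of 2.78 (2.25 to 3.45). Nrarp was at 311 and 71.4 CPM, a ratio of 4.35 (2.51 to 8.07). The other 43 cells had as many genes of one list as of the other, with Notch3 at 1558 CPM (1332 to 1812), Nrarp at 175 CPM (105 to 274) and Jag1 at 304 CPM (209 to 427). The pericyte-leaning cells were thus the low group for both genes, and Notch3 in the evenly matched cells was as high as on the smooth muscle side. Notch2 had a ratio of 2.00 (1.04 to 4.08). Jag1 (0.811, 0.539 to 1.23), Hes1 (ratio of 62 to 35 UMIs 1.18, 0.768 to 1.84), Heyl (1.25, 0.497 to 3.40), Hey1 and Notch1 had intervals that include 1. The 20 pulse cells were too few to show this split, since Notch3 had 13 and 8 UMIs there and a ratio of 0.799 (0.307 to 2.22).

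**Figure D2:**
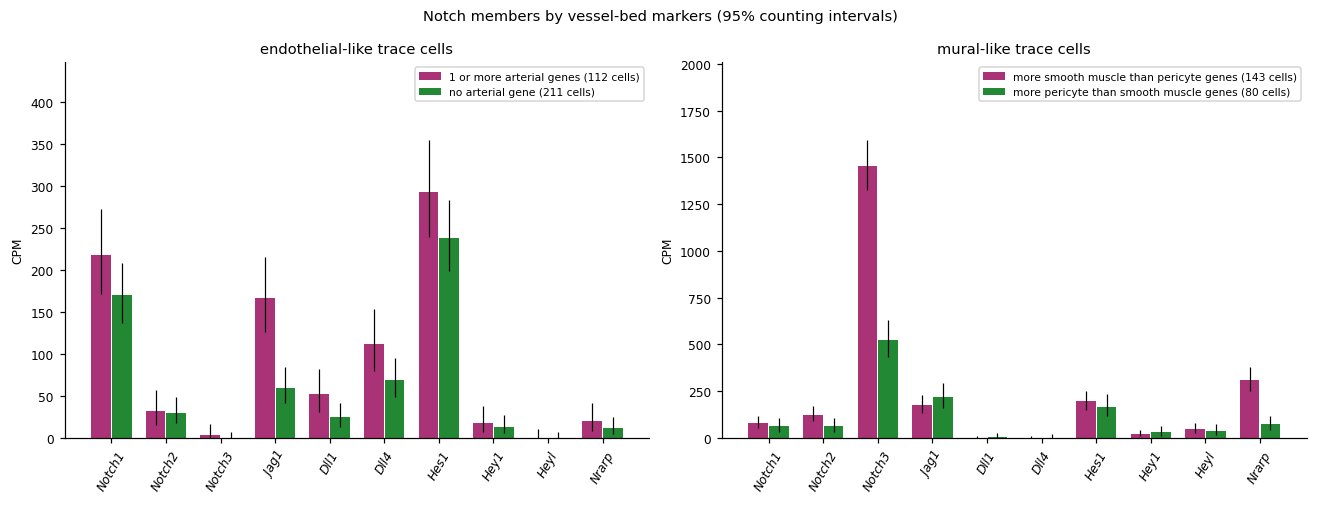
Bars give the level of each member in CPM (vertical axis) in trace cells, with 95% counting intervals: on the left endothelial-like cells with (purple) and without (green) an arterial gene, on the right mural-like cells leaning to smooth muscle (purple) or pericyte genes (green). Jag1 and Dll4 stand higher on the arterial side, and Notch3 and Nrarp on the smooth muscle side.

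Between the libraries, the Notch2 level was lower in trace than in pulse in each of the 7 classes compared, with intervals that include 1 in endothelial-like and osteoblast-like cells. The median gene was lower in each of them too, with log2 ratios from -0.21 (endothelial-like) to -0.88 (mural-like). In superficial chondrocyte-like cells Notch2 was at 158 CPM (151 to 164) in pulse from 2261 UMIs and 66.4 CPM (63.1 to 69.9) in trace from 1456, a trace to pulse ratio of 0.421 (0.394 to 0.450). It was the 1 member of the 2 measured there that was at least 2-fold lower, where 8.78% of 6276 genes were and 1.83% were higher, and the median gene of the class was lower by 0.23 on the log2 scale. Relative to that median the log2 ratio of Notch2 was -1.02, just past the 2-fold line. After thinning, a Notch2 UMI was found in 24.4% (23.0 to 25.9) of superficial pulse cells, and in trace in 11.7% (10.7 to 12.8). Beside this, the neutrophil markers of these cells summed to 146 CPM (pulse) and 186 CPM (trace) and all 10 chondrocyte markers together at 22194 and 13815 CPM, and their part was not tested. The superficial class lay mostly in different clusters in the libraries. A cluster led by AW112010, Col10a1 and Pde11a, which had no class name, held 42.7% of its pulse and 2.37% of its trace cells, while clusters led by Mgp, Plcxd3 and Clu and by Chil1, Serpina3n and Lcn2 held 19.5% and 7.41% of pulse and 47.6% and 27.5% of trace cells. Notch2 was lower in trace within each of the 6 clusters with 50 or more such cells per library, with ratios of 0.221 (0.158 to 0.301) to 0.444 (0.361 to 0.549). In lining cells the Notch2 levels were 254 CPM (pulse) and 76.8 CPM (trace), a ratio of 0.302 (0.247 to 0.370), with 10.8% of 6269 genes as much lower and 2.47% higher. Loose fibroblast-like cells, at 210 and 115 CPM (0.547, 0.394 to 0.773), deeper-zone cells, at 120 and 93.6 CPM (0.782, 0.635 to 0.957), and osteoblast-like cells, at 336 and 227 CPM (0.675, 0.419 to 1.14), did not reach 2-fold. Deeper-zone Notch2 lay 0.02 above the median of its class on the log2 scale, and that median was lower by 0.37 in trace. Osteoblast-like Notch2 lay 0.096 above its class median of -0.66. Mural-like Notch2 was at -0.58 relative to its class median, under 2-fold.

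The summed Hes1 level was higher in trace in both chondrocyte classes. In superficial cells it was at 35.3 CPM (32.3 to 38.6) in pulse and 58.4 CPM (55.3 to 61.7) in trace, a ratio of 1.65 (1.49 to 1.84) that does not reach 2-fold. Within the same 6 clusters, in which the libraries mix unequally, the ratio was 2.07 (1.46 to 2.89) to 5.12 (3.99 to 6.62) in 5, the last in the cluster led by the heat-shock genes Hspa1b, Dnajb1 and Hspa1a, and 0.671 (0.472 to 0.958) in the cluster led by Npy and Angptl7. In deeper-zone cells it was at 13.3 CPM from 64 UMIs and 29.3 CPM from 36 UMIs, a ratio of 2.20 (1.42 to 3.35), where 3.54% of 6577 genes were at least 2-fold higher and 18.6% lower. Those UMIs lay in 48 of 657 pulse and 17 of 197 trace cells, shares of 7.31% (5.44 to 9.57) and 8.63% (5.11 to 13.5) that overlap, and the 3 highest trace cells held 17 of the 36, so few cells carry this ratio. With classes taken from clusters in place of gates the log2 ratio was 0.76 in deeper-zone and 1.07 in superficial cells, which ends the first call and makes the second. In the fibroblast-like classes the ratios were below 1 with intervals that include 1, at 0.874 (0.556 to 1.43) in lining cells from 23 and 121 UMIs and 0.733 (0.545 to 1.001) in loose fibroblast-like cells at 241 and 177 CPM. In osteoblast-like cells the Hes1 ratio was 4.70 (1.25 to 39.6), from only 2 pulse UMIs against 67 in trace. It was the 1 member of 3 measured there that was 2-fold apart, where 7.37% of 6881 genes were higher and 37.2% lower.

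In endothelial-like cells 3 of the 6 members measured were 2-fold apart, 2 higher and 1 lower in trace, where 9.7% of 6972 genes were higher and 20% lower. Jag1 was at 314 CPM (224 to 428) in pulse and 102 CPM (81.9 to 125) in trace, a ratio of 0.324 (0.221 to 0.483). It was lower on both sides of the arterial split, at 451 and 167 CPM with an arterial gene and 175 and 59.7 CPM without, and the share of cells with an arterial gene was 39.3% in pulse and 34.7% in trace. Notch1 was at 70.7 and 189 CPM (2.67, 1.38 to 5.95) and Hes1 at 110 and 260 CPM (2.37, 1.38 to 4.40). Among the 24 pulse and 179 trace cells with 1000 or more genes the log2 ratio of Hes1 was 0.72, under 2-fold. Dll4 (0.782, 0.439 to 1.5), Dll1 (0.638, 0.276 to 1.72) and Notch2 (0.648, 0.262 to 1.92) had intervals that include 1. Procr itself was at 487 and 117 CPM in this class, a ratio of 0.239 (0.173 to 0.333), and the 17 mural markers summed to 322 and 312 CPM, and the part of either in these differences was not tested.

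The mural-like comparison rests on 20 pulse cells with 33025 UMIs, in which 1 UMI is worth 30.3 CPM and so passes the 20 CPM line alone. There 53.3% of 7934 genes were 2-fold apart, 6.91% higher and 46.4% lower, and 4 of the 8 members measured were. Of the 3684 genes lower in trace, 929 had 0 pulse UMIs and were made lower only by the floor of 3 UMIs (90.8 CPM here), and 34.7% were lower without them. The 4 members were Hes1 and Nrarp higher, Notch2 and Heyl lower. The ratios were 3.05 (0.825 to 25.5) for Hes1 and 3.44 (0.934 to 28.7) for Nrarp. Those of Notch2 and Heyl were 0.365 (0.173 to 0.886) and 0.417 (0.127 to 2.16). Of these intervals, only that of Notch2 excludes 1. All 4 rested on 2 to 8 pulse UMIs. Notch3 had the most, 33, and a ratio of 1.17 (0.823 to 1.71), so a difference was not detectable at this depth. Over all passing cells together Notch3 went from 4.38 CPM (pulse) to 25.5 CPM (trace), and Nrarp at 0.347 and 5.37 CPM, while mural-like cells were 0.306% of pulse and 2.88% of trace cells.

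**Figure D3:**
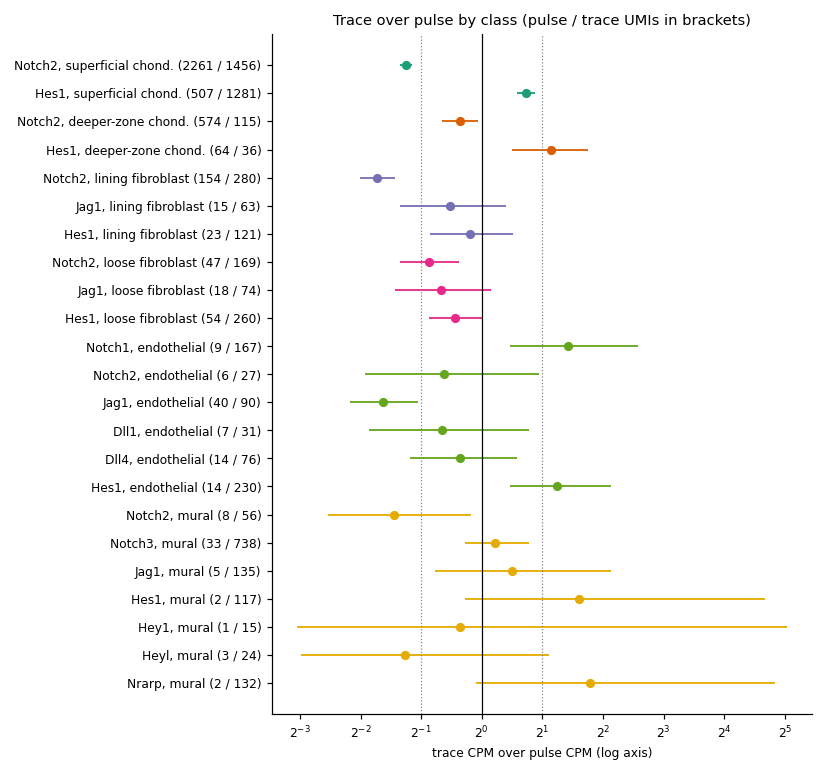
Trace CPM over pulse CPM (horizontal axis, logarithmic) for each member at 20 CPM or more in a library of a class (rows, with pulse and trace UMIs), with 95% counting intervals and dotted lines at 2-fold. Notch2 lies left of 1 in all 6 classes drawn, Hes1 right of 1 in chondrocyte, endothelial and mural classes, and Notch1 in mural cells, at 0 UMIs in pulse, is not drawn.

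Hes1 is known to respond to serum and stress as well as to Notch, so it was set beside 10 immediate early genes (Fos, Fosb, Jun, Junb, Egr1, Atf3, Ier2, Nr4a1, Dusp1, Zfp36), whose RNA appears within minutes of stimulation, tissue digestion included. Cells of a class were ordered by that list's share of UMIs and cut into 4 equal bins. In superficial cells Hes1 was at 15.5 CPM (11.5 to 20.5) in the lowest bin and 61.4 CPM (54.0 to 69.5) in the highest in pulse, and at 39.6 CPM (34.1 to 45.7) and 97.7 CPM (89.7 to 106) in trace. In deeper-zone pulse cells it was at 4.43 CPM (1.44 to 10.3) and 29.9 CPM (21.3 to 40.6). In loose fibroblast-like trace cells it was at 26.5 CPM (13.2 to 47.3) and 453 CPM (384 to 532). In endothelial-like trace cells it was at 79.5 CPM (50.4 to 119) and 742 CPM (622 to 877). The 56 endothelial-like pulse cells did not show that order, with 0 Hes1 UMIs in both the lowest and the highest bin of 14 cells. Hes1 was therefore higher in the highest than in the lowest bin of superficial cells in both libraries. The same held for deeper-zone cells in pulse, and for loose fibroblast-like and endothelial-like cells in trace.

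The mural class had a flatter profile, from 143 CPM (92.4 to 211) in the lowest to 227 CPM (159 to 314) in the highest bin, with overlapping intervals, while the early genes went from 1349 to 12162 CPM. Notch2 in superficial trace cells was at 64.4 and 70.4 CPM in the same bins and Jag1 at 13.1 and 13.6 CPM. In deeper-zone pulse cells Notch2 was instead lower in the highest bin, from 141 CPM (120 to 164) to 91.0 CPM (75.6 to 109). Jag1 there was at 8.85 and 18.7 CPM, with overlapping intervals. Within each of the 4 bins superficial Hes1 was higher in trace than in pulse. The list as a whole was lower in trace, at 1592 CPM against 2062 CPM in pulse, although Fos was higher (154 against 74.6 CPM) and Jun lower (142 against 299 CPM). The heat-shock genes Hspa1a and Hspa1b followed the same order in superficial cells, at 827 CPM in the lowest and 5329 CPM in the highest pulse bin and 209 and 6431 CPM in trace. Their part in the level of Hes1 was not tested.

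**Figure D4:**
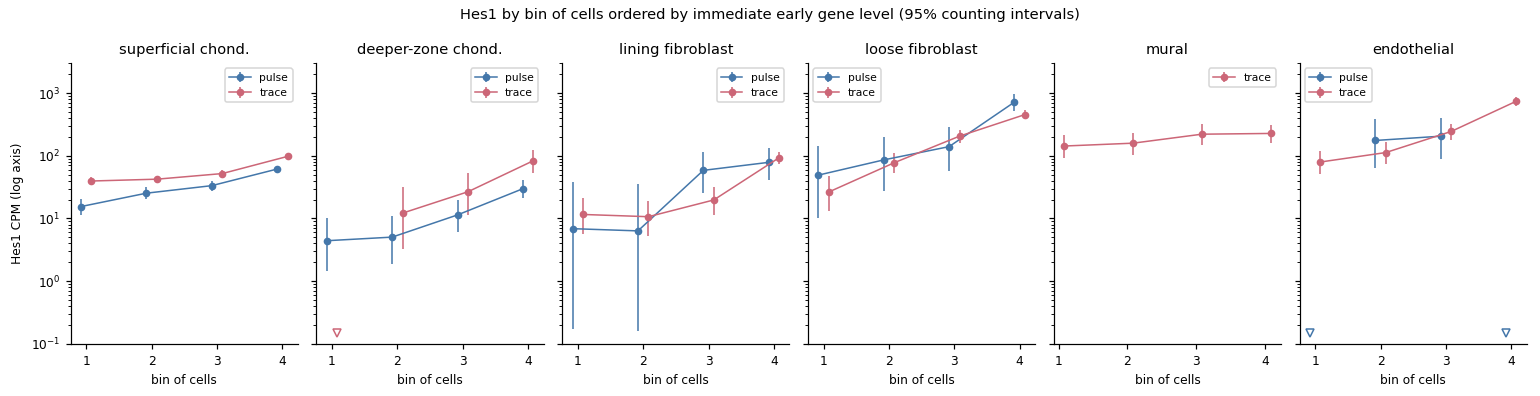
Hes1 in CPM (vertical axis, logarithmic) by bin of the cells of a class, ordered from the lowest (1) to the highest (4) share of 10 immediate early genes, in pulse (blue) and trace (red), with 95% counting intervals and open triangles for 0 UMIs. In trace, endothelial cells go from 79.5 to 742 CPM and mural cells from 143 to 227 CPM.

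The rest of the pathway was read from a list of 48 further genes. In mural-like against superficial trace cells 28 were measured, with a median log2 ratio of 0.42 against 0.20 over all genes. Of the 28, 9 were 2-fold higher and 2 lower, beside 24.2% and 16.8% of all genes, and the difference of these shares was not tested. Hey2, a vascular Hey repressor, was the target among them, at 33.1 CPM (20.5 to 50.7) in mural-like, 1.19 CPM in superficial and 1.13 CPM in endothelial-like cells. The co-activator genes diverged: Maml3 was at 281 CPM in mural-like and 10.7 CPM in superficial cells, while Maml2 was at 264 and 1348 CPM. The other 7 higher genes were Mib2, Psen2, Tle1, Tle4, Numb, Dtx2 and Dtx3, and the second lower one was Aph1a, a subunit of gamma-secretase.

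In endothelial-like against superficial trace cells 28 were measured, 10 higher and 2 lower, beside 25.1% and 17.8% of all genes. As with the members, a gene that reached 20 CPM only through its vessel class, such as Hey2 above or Jag2 here, had to differ. The ligand Jag2 was at 37.3 CPM (25.7 to 52.4) and had 2 UMIs in superficial cells. Neurl3, a ubiquitin ligase of the Neuralized family, was at 98.4 CPM (78.8 to 121), and Mfng, a Fringe enzyme that adds sugars to the receptors, at 38.5 CPM (26.6 to 53.7). Notch4, the endothelial receptor, was highest in this class too, at 15.8 CPM from 14 UMIs. The others higher were Neurl1b, Adam10, Maml3, Spen, Tle1, Tle4 and Numb, and Rbpj and Numbl were lower, Rbpj at 166 CPM (140 to 195) against 415 CPM (406 to 423). Rbpj was at 263 CPM in deeper-zone cells and was highest in loose fibroblast-like cells, at 444 CPM.

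Of each role, the gene with the highest trace level in any class was Notch4, Jag2, Mfng and Hey2 at the levels given above, Mib1 at 243 CPM and Numb at 408 CPM in endothelial-like cells, Adam10 at 568 CPM in B-lineage-like cells and Maml2 at 2081 CPM in deeper-zone cells. Between the libraries, none of the 24 measured was 2-fold apart in superficial cells, and in deeper-zone cells 2 of 24 were lower in trace, Neurl1b and Numb, where 18.6% of all genes were lower. In lining cells Maml3 was higher and Numb lower among 27, beside 2.47% and 10.8% of all genes, and in loose fibroblast-like cells Spen was higher and Rfng, Adam17, Psenen and Numb lower among 27, with 5.88% of genes higher and 17.2% lower. In endothelial-like cells Snw1 was higher, from 1 pulse UMI, and Poglut1, Adam10, Numb and Dtx2 lower among 30, beside 9.7% and 20% of all genes. In osteoblast-like cells, of which pulse had 31, Furin, Tle1 and Tle4 were higher and Adam10, Adam17, Maml2, Ncor1, Dtx2, Dtx3 and Dtx4 lower among 26, beside 7.37% and 37.2% of all genes. In mural-like cells 2 of 29 were higher and 9 lower, beside 6.91% and 46.4% of all genes. Furin was among those higher, from 1 pulse UMI, and Psen2, Ncstn, Aph1b, Maml2, Numb, Dtx3 and Dtx4 were among those lower. Hey2 had 0 pulse UMIs against 21 in trace, and only the floor scored it lower. Numb, which antagonises Notch, was at least 2-fold lower in 5 of these 7 classes, with ratios outside the mural class of 0.418 (0.288 to 0.591) in deeper-zone, 0.482 (0.383 to 0.610) in lining, 0.403 (0.290 to 0.567) in loose fibroblast-like and 0.397 (0.324 to 0.489) in endothelial-like cells. Relative to the class medians, of these 4 only the endothelial one stayed past 2-fold.

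Likeness across classes was described by Pearson's r of log2(CPM + 10) over the 14 class and library combinations of 50 or more cells, which share libraries and depth. Notch3 went with Nrarp (r = 0.93) and Heyl (0.87), Dll1 with Dll4 (0.99) and Jag1 with Hes1 (0.82), while Notch1 and Notch2 had r = -0.49. Mural-like cells entered from trace only, so the values among Notch3, Nrarp and Heyl rest largely on that single combination. Those of Dll1 and Dll4 rest largely on the endothelial-like combinations of both libraries. The 3 genes most like each member were Cysltr2, Gucy1b1 and Mgat4e for Notch3 (r of 0.98 each), Gja4, Abcc9 and Fhl5 for Nrarp (0.97, 0.96 and 0.95), and Ctnna3, Parm1 and Pde8b for Heyl (0.97, 0.96 and 0.96). Gucy1b1 and Abcc9 are among the markers that gated the mural class. For Dll4 they were Ptprb, Rassf9 and Cldn5 (1.00 each) and for Dll1 Cldn5, Tmem252 and Tnfaip8l1 (0.99 each), of which Ptprb and Cldn5 gated the endothelial class. For Notch1 they were Rnf125, Hoxb4 and Trim69 (0.96, 0.94 and 0.91) and for Jag1 Fam13c, Map1b and Caskin2 (0.96, 0.95 and 0.95). For Notch2, Hes1 and Hey1 the closest gene had a lower r than for the members above. The 3 genes were Ncam1, Leprotl1 and Ccpg1 for Notch2 (0.87, 0.86 and 0.80), Il27, Plxna1 and Ctif for Hes1 (0.91, 0.89 and 0.88), and Ccl2, Smad7 and Sgtb for Hey1 (0.88, 0.87 and 0.86).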

How the data were processed

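The values are UMI counts, not normalized, which the authors deposited as 1 matrix of genes by barcodes for each of the 2 libraries. Per the file headers they came from Cell Ranger 7.1.0, while the submitters' processing notes name Cell Ranger 3.0.1 and mm10. That difference was not settled, and the sources used here do not give the intron or strand setting of the counting. Intronic reads, if counted, would raise long genes such as Notch2. Symbols were used as deposited.

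Cells with 500 or more genes and 10% or less mt- UMIs were kept, and no column was left out. A class needed a UMI of at least 3 distinct markers (mural, endothelial, osteoblast and neutrophil lists) or 2 (B-lineage, lining and loose fibroblast lists). A chondrocyte needed 5 of 10 chondrocyte markers, with 4 of 8 superficial markers for the superficial class, and otherwise 4 of 9 deeper-zone markers. Broad markers were left out of the gates after seeing where they were detected: Cspg4, Ndufa4l2, Mylk and Pdgfrb (mural), Hbegf (lining), Sema3c and Pcolce2 (loose). Of the mural-like, endothelial-like and deeper-zone cells, 283 of 286, 369 of 379 and 779 of 854 lay in Leiden clusters of the same name, but only 4972 of 8292 superficial cells did, with 3003 in clusters of no name. Scrublet marked no doublet, so it did not work here, and cells that met more than 1 gate were left out instead.

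UMIs were summed by class and library and scaled to CPM. With 1 library a group there is no test across samples. A gene was called apart at 2-fold if it had 20 CPM or more in either class or library compared, and a count of 0 was set to 3 UMIs over the group. The scripts (Python 3.11.15, scanpy 1.11.5, scipy 1.17.1, leidenalg 0.10.2) were tested on simulated counts. The 10 members, the markers and the 48 pathway genes were chosen with earlier results of these data known. The text names all members, pathway genes past 2-fold (some in mural-like cells are not reported here) or highest in their role, and the 3 genes most correlated with each member. Promoter windows came from RefSeq, and coordinates of genes from GENCODE M21, both on GRCm38. The closing section covers alternatives in class definition, gate, depth filter, doublet score, scaling, averaging, floor and thinning.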

Additional observations from a re-analysis of the deposited data

How the results depend on the processing

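The alternatives were clusters in place of gates, 1 more marker per gate, cells with 1000 or more genes, removal of the 5% of cells with the highest Scrublet scores, a total without mitochondrial, ribosomal protein and rRNA-associated genes, median-ratio scaling, the mean of per-cell CPM, and a floor of 10 CPM. Of 44 recomputed counts of members, 42 stayed within 1.5 times. With Leiden clusters, the number of members 2-fold apart went from 1 to 0 in deeper-zone cells and from 1 to 2 in superficial cells, through Hes1 in both, and the mural-like log2 ratio of Heyl reversed from -1.26 to 0.093, with 3 pulse UMIs in the gated class. The cause was not tested. A count within 1.5 times can hold other genes: with 1000 or more genes per cell the endothelial-like calls were Notch1 higher and Jag1 and Dll1 lower, and under median-ratio scaling the 4 mural-like calls were all higher (Notch3, Jag1, Hes1 and Nrarp). The number of members with their highest trace level in mural-like (5) or endothelial-like cells (4) was the same under each of the 6 alternatives run for it. The share of all genes that were highest in these small classes is not given here, so this count describes the members only. Median-ratio scaling changed the split of all genes called higher and lower, from 115 and 551 to 233 and 344 in superficial, from 233 and 1226 to 474 and 693 in deeper-zone, from 676 and 1397 to 907 and 1071 in endothelial-like and from 548 and 3684 to 1746 and 1836 in mural-like cells, where the median used for scaling includes the 1271 genes with 0 pulse UMIs. Without thinning, 25.0% of superficial trace cells had a Notch2 UMI, and 6.27% when thinned to 1000 UMIs. No paired analysis was possible because each group is 1 library. Chosen after seeing the data, a rule that makes no call against the measured direction for genes with 0 UMIs left the 4 member counts as they were, and the superficial ratios within clusters stand beside those results. Depth limits the small pulse classes, in which 1 UMI is worth 30.3 CPM (mural-like), 16 CPM (osteoblast-like) and 7.85 CPM (endothelial-like).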

Other observations

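Reporter and Procr transcripts were also counted in the vessel classes. Tdtomato had 97 UMIs in the 266 mural-like and 89 in the 323 endothelial-like trace cells, against 12 in 240 neutrophil-like and 1487 in 4269 superficial cells. Procr had 776 UMIs in mural-like trace cells, 103 in endothelial-like and 428 in superficial cells, and 68 in the 20 mural-like pulse cells.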
